A study of Mus musculus with 4 samples.

Results

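The nuclear receptor genes described here are 34 members of the superfamily to which PPARα belongs, chosen by name: the 3 PPARs, the 3 RXRs, the receptors for retinoic acid, thyroid hormone, sterols, bile acids, xenobiotics and steroids, and the HNF4, COUP-TF, LRH-1 and NUR77 groups of receptors. Probe sets were found for 32 of the 34, 56 probe sets in all, among 12384 named genes on the array; for Nr1h2 and Nr3c2 no expression values were analysed here. The gene names were matched through current or older symbols, and the probe set with the highest mean intensity over the arrays stands for each gene, with its other probe sets given beside it.

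The arrays hold liver RNA of male mice 12 to 20 weeks old in 4 groups: wild-type mice (129S1/SvImJ) on normal food, wild-type mice on food with 0.1% (w/w) WY14643, and PPARα-null mice (129S4/SvJae) on the same 2 diets, for 5 days. WY14643, written Wy14643 below, is a synthetic PPARα agonist. RNA of 5 mice per group was pooled and hybridized to 1 Affymetrix MOE430A array per group, so no value has a replicate and no test over mice was possible, and the use of 1 array for each value limits how precise a ratio can be. The null mutation is constitutive and affects all cell types of the liver, and because the strain labels of the genotypes differ, an effect of Ppara and an effect of substrain cannot be told apart. One label conflict was met: free text for the wild-type Wy14643 array speaks of control conditions, while its title and source name give Wy14643, which was taken.

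Nuclear receptors are transcription factors that bind short DNA motifs through a pair of zinc fingers and, in most cases, respond to a lipophilic ligand such as a fatty acid, a bile acid, an oxysterol, a retinoid, a thyroid hormone or a steroid. PPARs, the retinoic acid, thyroid hormone and vitamin D receptors, LXR, FXR, PXR and CAR bind DNA as heterodimers with an RXR, so that these receptors share a partner. In liver they set the rates of fatty acid oxidation, bile acid synthesis, lipogenesis and drug metabolism, and several of them act on the genes of others: FXR, the bile acid receptor, activates Nr0b2, whose product SHP in turn represses LRH-1, the product of Nr5a2, at genes of bile acid synthesis.

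Values are GCRMA intensities, on a linear scale, and ratios between groups are given as fold or log2 ratio. Background was set at 12.9, the 90th percentile of intensity among 75 probe sets for 54 genes without expression in liver. A gene was called higher or lower if its ratio reached 1.5 (log2 ratio 0.58) and either of the 2 arrays compared exceeded background. Between 53.1% and 54.0% of probe sets were above background on the 4 arrays, and all 8 hepatocyte markers with a probe set were among them. Intensities of different probe sets cannot be set against each other, so ratios are taken within a probe set. Summed intensities of cell type markers are compared between arrays only, and brighter probe sets weigh more in them. Agreement within a gene was measured in 2324 genes with at least 2 probe sets above background on all arrays. The log2 ratios of the 2 brightest differed by a median of 0.33 for the effect of Wy14643 in wild-type mice. For that effect in PPARα-null mice the median was 0.23. Between genotypes this median was 0.17 on the control diet, and 0.37 on Wy14643. Both probe sets were read on the same arrays, so the difference holds no error between arrays or pools.

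Of the 32 genes, 16 were above background on all 4 arrays: Ppara, Pparg, Rxra, Rxrb, Nr1h3, Nr1h4, Nr1i2, Nr1i3, Nr0b2, Nr3c1, Hnf4a, Nr2f1, Nr2f2, Nr2f6, Rora and Nr5a2. A further 7, namely Rarb, Thra, Vdr, Nr2c1, Nr2c2, Esrra and Nr4a1, were above background on 1 to 3 arrays. The remaining 9, Ppard, Rxrg, Rara, Rarg, Thrb, Esr1, Pgr, Nr6a1 and Nr4a2, lay between 5.25 and 12.4 on every array, so no ratio is given for them. Liver is known to express several of these 9, such as Thrb and Esr1, and their low intensity describes these probe sets, not the absence of the transcript. Of 14 nuclear receptor genes outside the list, 10 had a probe set and 2 were above background, the clock genes Nr1d1, at 28.0 to 49.2, and Nr1d2. Nr1d2, a repressor in the clock, was 1606.0, 1142.6, 1878.6 and 1919.5 on the wild-type control, wild-type Wy14643, null control and null Wy14643 arrays, and was called lower in wild-type than in null mice on Wy14643 (log2 ratio -0.75).

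The promoter windows of 4 of the genes that passed 1.5-fold in some comparison are shown first because they hold the letters that nuclear receptors are known to bind. Each runs from 250 bases before to 50 bases after a RefSeq transcription start of build GRCm38.p6, 5′ to 3′ on the strand of the gene. Capitals mark AGGTCA, the core motif of most receptors outside the steroid group, or, in Nr0b2, CAAGGNCA, the extended form of the motif that LRH-1 binds. The windows are those of Nr5a2 at chr1:136960399-136960698 on the minus strand, Nr0b2 at chr4:133553126-133553425 on the plus strand, the second listed start of Rxra at chr2:27709042-27709341 on the plus strand, and the second listed start of Pparg at chr6:115362099-115362398 on the plus strand.
Nr5a2: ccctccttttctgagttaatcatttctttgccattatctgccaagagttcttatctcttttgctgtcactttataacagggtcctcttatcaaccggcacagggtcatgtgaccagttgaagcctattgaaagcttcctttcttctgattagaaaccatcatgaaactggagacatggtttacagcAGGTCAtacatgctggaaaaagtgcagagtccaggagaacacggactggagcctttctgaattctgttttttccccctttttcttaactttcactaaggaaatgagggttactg
Nr0b2: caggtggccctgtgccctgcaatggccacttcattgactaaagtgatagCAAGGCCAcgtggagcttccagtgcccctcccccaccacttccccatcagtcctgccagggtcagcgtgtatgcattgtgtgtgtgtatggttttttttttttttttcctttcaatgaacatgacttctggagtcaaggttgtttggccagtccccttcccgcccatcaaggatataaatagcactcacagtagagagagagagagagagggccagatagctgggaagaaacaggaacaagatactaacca
Rxra: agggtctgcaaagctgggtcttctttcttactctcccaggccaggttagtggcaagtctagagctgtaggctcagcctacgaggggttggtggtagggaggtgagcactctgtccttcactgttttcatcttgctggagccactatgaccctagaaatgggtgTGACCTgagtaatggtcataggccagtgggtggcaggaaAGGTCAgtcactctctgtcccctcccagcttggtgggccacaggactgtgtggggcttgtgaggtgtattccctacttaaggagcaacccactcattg
Pparg: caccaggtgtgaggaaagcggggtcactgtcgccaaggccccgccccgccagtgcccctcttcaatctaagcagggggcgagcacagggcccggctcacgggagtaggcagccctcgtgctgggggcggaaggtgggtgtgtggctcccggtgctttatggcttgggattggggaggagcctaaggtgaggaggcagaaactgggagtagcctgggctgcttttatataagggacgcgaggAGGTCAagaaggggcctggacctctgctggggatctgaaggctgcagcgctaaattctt

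The match in Nr5a2 begins 64 bases before the start and that in Pparg 9 bases before it. In Rxra the matches begin 87 bases before the start, on the opposite strand, and 48 bases before it. In Nr0b2 the match begins 201 bases before the start. Neither motif is found in the windows of Ppara, Rxrb, Rarb, Nr2f2, Nr2f6 and Nr4a1, the other genes past 1.5-fold. Both motifs are also absent at the first listed start of Rxra, the second of Nr5a2 and the third of Pparg. The first listed start of Pparg has AGGTCA as well. Windows of 32 of the 34 genes were used, all but those of Thra and Nr3c1, and both strands were searched. AGGTCA was found in 10 of their 48 windows (9 genes), against 16.3% of all 32851 windows of the same length, and CAAGGNCA in 2 of 48 against 6.71%; the 2 motifs overlap where CAAGGTCA occurs, which none of the 48 windows holds. The PPAR response element in its consensus form, 2 copies of AGGTCA with 1 base of any kind between them, was found in 0 of the 48 windows, as was the looser form of 2 copies of AGGNCA spaced alike, against 0.0396% and 0.381% of all windows. These are matches of letters in a short window and say nothing on binding.

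**Figure D1:**
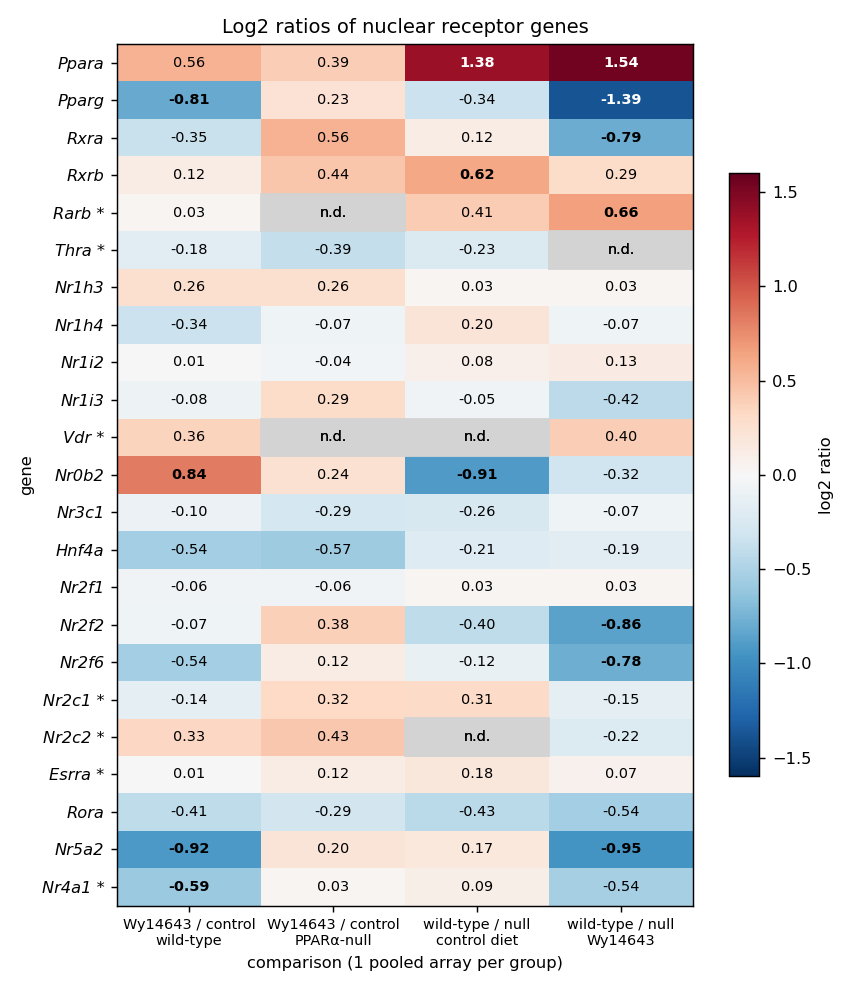
Log2 ratio in each of the 4 comparisons (columns) for the 23 nuclear receptor genes with signal above background (rows); bold marks ratios past 1.5-fold, an asterisk genes below background on some array, and n.d. pairs of arrays both below background. Ppara is the top row, at 1.38 and 1.54 between the genotypes, and no ratio is bold in the column for PPARα-null mice on Wy14643.

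Ppara itself, the gene targeted in the null mice, had an intensity of 847 on the wild-type control array, 1250.1 on the wild-type Wy14643 array, 326 on the null control array and 428 on the null Wy14643 array. Both wild-type arrays were higher than both null arrays, by 2.60-fold on the control diet and 2.92-fold on Wy14643. Signal remained on both null arrays, and since the position of the probes relative to the disrupted part of the gene is not given in the sources used here, the remaining signal neither checks the labels nor measures functional transcript. On Wy14643 Ppara stood above control at a log2 ratio of 0.56 in wild-type and 0.39 in null mice, both under the threshold.

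Pparg, the adipocyte PPAR, which is expressed at a low level in liver, had intensities of 34.2 on the wild-type control array, 19.5 on the wild-type Wy14643 array, 43.3 on the null control array and 51.0 on the null Wy14643 array. The wild-type Wy14643 array was the lowest of the 4, 1.75-fold under its control and 2.62-fold under the null Wy14643 array. The values are near background, and the log2 ratio between the genotypes on Wy14643 of -1.39 shrank to -0.69 with 32 added to every intensity, while that within wild-type mice shrank from -0.81 to -0.36 and was then under the threshold. Of the adipocyte markers Adipoq, Lep and Retn, 0 of 3 were above background on any array. Pparg is also expressed in macrophages, and markers of Kupffer cells, the macrophages of liver, had a summed intensity of 1041 on the wild-type control array, 417 on the wild-type Wy14643 array, 1249 on the null control array and 646 on the null Wy14643 array, with 7 of 9 above background and Marco and Cd68 below it on all arrays. Their part in the Pparg result was not tested, and in bulk RNA fewer cells of a type and less RNA per cell cannot be told apart. Ppard, the third PPAR, lay at 5.25 to 5.65, below background.

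Rxra, the main RXR of liver and partner of PPARα, had intensities of 986 on the wild-type control array, 772 on the wild-type Wy14643 array, 907 on the null control array and 1332 on the null Wy14643 array. The arrays on the control diet were close to each other (1.09-fold), whereas on Wy14643 the wild-type array was 1.73-fold lower than the null array. Within each genotype the ratio to control stayed under the threshold, at a log2 ratio of -0.35 in wild-type and 0.56 in null mice. The dimmer probe set of Rxra, at 43.7 to 49.3, did not show this difference, with 1.08-fold between the genotypes on Wy14643, so that the call rests on 1 probe set. Rxrb, the widely expressed RXR, was 81.1 on the wild-type control array, 88.1 on the wild-type Wy14643 array, 52.9 on the null control array and 71.8 on the null Wy14643 array. Wild-type mice had 1.53-fold more Rxrb signal than null mice without Wy14643 and 1.23-fold more with it. With 32 added to every intensity the former dropped under the threshold, to a log2 ratio of 0.41. Rxrg, the RXR of muscle and brain, was below background.

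In wild-type mice, Wy14643 went with higher Nr0b2 and lower Pparg, Nr5a2 and Nr4a1. Among 23 genes above background on either array, 1 was called higher and 3 were called lower, where 14.9% of 7640 genes were higher and 15.9% lower by the same rule. The median log2 ratio of the 23 was -0.08, beside 0.02 over all 7640 genes. The lower share is near that of all genes, and the higher share is under it. On the same array 4 of 8 hepatocyte markers were called lower, namely Cps1, Tat, Ahsg and Fgb, and their relation to the receptor values was not tested.

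Nr5a2 encodes LRH-1, which drives genes of bile acid synthesis together with HNF4α. Its intensity was 854 on the wild-type control array, 452 on the wild-type Wy14643 array, 760.1 on the null control array and 874 on the null Wy14643 array. The wild-type Wy14643 array stood apart from the other 3, being 1.89-fold lower than its control and 1.94-fold lower than the null array on Wy14643, while Wy14643 and control differed by 1.15-fold in null mice. The second probe set gave 1.90-fold and 2.05-fold for the first pair of comparisons, and the third, which is dimmer, 1.25-fold and 1.32-fold in the same direction. A further probe set was below background.

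Nr0b2, whose product SHP lacks a DNA-binding domain and acts as a repressor of other receptors, had intensities of 60.9 on the wild-type control array, 109 on the wild-type Wy14643 array, 115 on the null control array and 135 on the null Wy14643 array. Here the wild-type control array was the low one: it was 1.78-fold lower than the wild-type Wy14643 array and 1.88-fold lower than the null control array, whereas the 2 arrays on Wy14643 differed by 1.24-fold. Both calls share that array, and Nr0b2 has a single probe set.

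Nr4a1 encodes NUR77, an immediate early receptor that needs no ligand. Its intensities were 19.1 on the wild-type control array, 12.6 on the wild-type Wy14643 array, 17.9 on the null control array and 18.3 on the null Wy14643 array. The wild-type Wy14643 value is below background, so that the ratio of 1.51-fold becomes at least 1.47-fold and is then no call; the related gene Nr4a2 was below background throughout.

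**Figure D2:**
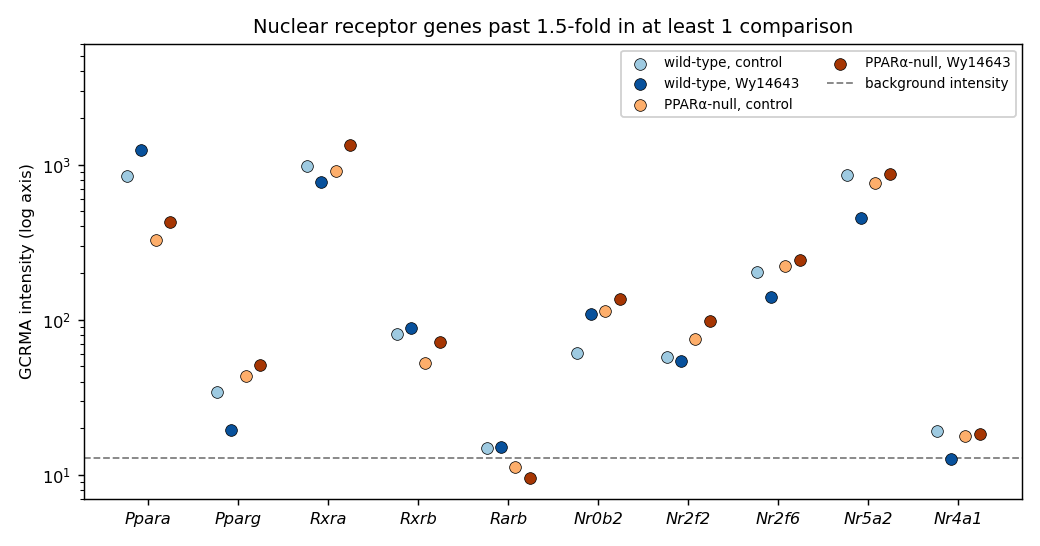
GCRMA intensity (log axis) on each of the 4 pooled arrays for the 10 nuclear receptor genes past 1.5-fold in at least 1 comparison; each point is 1 array and the dashed line is the background of 12.9. For Nr5a2, Pparg, Rxra, Nr2f2, Nr2f6 and Nr4a1 the wild-type Wy14643 point is the lowest of the 4, and for Nr0b2 the wild-type control point.

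In PPARα-null mice, Wy14643 left all 21 receptor genes within 1.5-fold of the control diet (0 higher, 0 lower). Over all 7544 genes, 2.28% were higher and 4.41% lower, so the count of 0 is near the background. The ratios nearest the threshold were those of Hnf4a (log2 ratio -0.57), Rxra (0.56) and Rxrb (0.44), and the median of the 21 was 0.20 beside 0.00 over all genes. The SD of the log2 ratios over 6633 genes above background on all arrays was 0.32 in this comparison and 0.85 in wild-type mice.

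Between the genotypes on the control diet, Ppara and Rxrb were higher in wild-type mice and Nr0b2 was lower: 2 higher and 1 lower of 21, where 2.42% of 7409 genes were higher and 2.47% lower. Ppara is the gene targeted in the null mice, so its call is tied to the genotype itself. The other 18 lay within 1.5-fold, among them Nr1h4 at 1.15-fold and Hnf4a at 1.16-fold, and the median log2 ratio of the 21 was 0.03, beside -0.02 over all genes.

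Between the genotypes on Wy14643, 2 of 22 genes were higher in wild-type mice, Ppara and Rarb, and 5 were lower, Pparg, Rxra, Nr2f2, Nr2f6 and Nr5a2. Here too the call of Ppara is tied to the genotype itself, and that of Rarb is lost with a floor at background. Over 7712 genes 16.5% were higher and 17.6% lower, with a median log2 ratio of -0.02, beside -0.17 for the 22 receptor genes. This comparison shares its arrays with those of Wy14643 against control within each genotype, so its calls are not independent of those above. The count of lower genes was 5 of 22 and lies near the share over all genes.

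Nr2f6 (EAR2) and Nr2f2 (COUP-TFII) belong to the COUP-TF receptors, which mostly repress and compete for the motifs of other receptors. Nr2f6 was 204 on the wild-type control array, 141 on the wild-type Wy14643 array, 222 on the null control array and 241 on the null Wy14643 array, with the wild-type Wy14643 array the lowest. Between the genotypes on Wy14643 the wild-type value was lower by 1.72-fold here and by 1.93-fold with the second probe set; against its own control the wild-type array was 1.45-fold lower by both. Nr2f2 was 57.3 on the wild-type control array, 54.6 on the wild-type Wy14643 array, 75.7 on the null control array and 98.8 on the null Wy14643 array. Both null arrays were higher than both wild-type arrays, by 1.32-fold on the control diet and 1.81-fold on Wy14643, and the second probe set gave 1.36-fold and 1.59-fold, whereas the third and dimmest gave 1.01-fold on Wy14643. Nr2f1, the third COUP-TF, was 14.8 to 15.8 on all arrays.

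Nr2f2 is known from stellate and endothelial cells, among other cell types. Stellate cell markers summed to 2172 on the wild-type control and 1124 on the wild-type Wy14643 array. On the null control and null Wy14643 arrays they summed to 2588 and 2715. Of these markers 7 of 9 were above background, with Des and Lrat below it on all arrays. Most of each sum came from Dcn, at 1182, 585, 1304 and 1577 in the same order, and Rgs5, at 720, 337, 976 and 642. On Wy14643, 6 of 7 were called lower in wild-type than in null mice, where 17.6% of all genes were lower. Against control, 3 of 6 were lower with Wy14643 in wild-type mice. In null mice 1 of 7 was lower, Rgs5, and 2 were higher, Reln and Col3a1. Markers of sinusoidal endothelial cells, 7 of 8 above background with Pecam1 below it, summed to 1617, 938, 1719 and 838 in the same order. Fcgr2b was the largest part of each sum, at 828, 365, 901 and 343. With Wy14643, 2 of 7 endothelial markers were called lower in wild-type mice and 4 of 7 in null mice. Between the genotypes on Wy14643, 1 of 6 was higher in wild-type mice and 0 were lower. The part of either cell type in the Nr2f2 values was not tested.

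Rarb, a retinoic acid receptor that is itself induced by retinoic acid, was 14.9 on the wild-type control array, 15.1 on the wild-type Wy14643 array, 11.2 on the null control array and 9.59 on the null Wy14643 array. Both null values are below background, so that the 1.58-fold between the genotypes on Wy14643 becomes at least 1.17-fold and is then no call. Rara and Rarg, the other retinoic acid receptors, were below background.

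The other 13 receptors with signal above background passed 1.5-fold in no comparison, with log2 ratios between -0.57 and 0.43. They include most of the receptors for which liver is best known. Nr1h4 (FXR) was 853 on the wild-type control array, 673 on the wild-type Wy14643 array, 742 on the null control array and 704 on the null Wy14643 array, which are within 1.27-fold of each other. Nr1i3 (CAR), the xenobiotic receptor that controls Cyp2b genes, was 917, 868, 952 and 1165 in the same order, with 1.34-fold between the genotypes on Wy14643. Nr1i2 (PXR), which controls Cyp3a genes, was 22.5 to 24.6 on all arrays, although its dimmer probe set gave 1.53-fold more signal for wild-type than for null mice on Wy14643.

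Nr1h3 (LXRα), the oxysterol receptor, was 109 on the wild-type control array, 130.4 on the wild-type Wy14643 array, 107 on the null control array and 128 on the null Wy14643 array, so that Wy14643 arrays were higher by 1.20-fold in wild-type and 1.19-fold in null mice. Nr3c1, the glucocorticoid receptor, was 776, 725, 931 and 763 in the same order, within 1.28-fold, and its 2 further probe sets stayed under the threshold as well. Rora, a receptor of the circadian clock, was 71.0, 53.6, 95.4 and 78.1, lower in wild-type than in null mice by 1.34-fold on the control diet and 1.46-fold on Wy14643; its second probe set gave log2 ratios of -0.40 and -0.59, the latter past the threshold. Thra, Vdr, Nr2c1, Nr2c2 and Esrra had intensities close to background, from 9.68 to 17.2.

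Hnf4a, the receptor that maintains hepatocyte identity, was 1546 on the wild-type control array, 1059.5 on the wild-type Wy14643 array, 1786 on the null control array and 1205 on the null Wy14643 array. Both Wy14643 arrays were lower than both control arrays, at log2 ratios of -0.54 in wild-type and -0.57 in null mice, just under the threshold. The 3 other probe sets did not share this pattern. The second, at 1243, 884, 1429 and 1684 in the same order, was 1.41-fold lower on Wy14643 in wild-type mice but 1.18-fold higher in null mice, so that the genotypes on Wy14643 differed by 1.91-fold with wild-type lower, and the remaining 2 stayed within 1.08-fold in every comparison. Hnf4a therefore has no settled direction on these arrays.

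**Figure D3:**
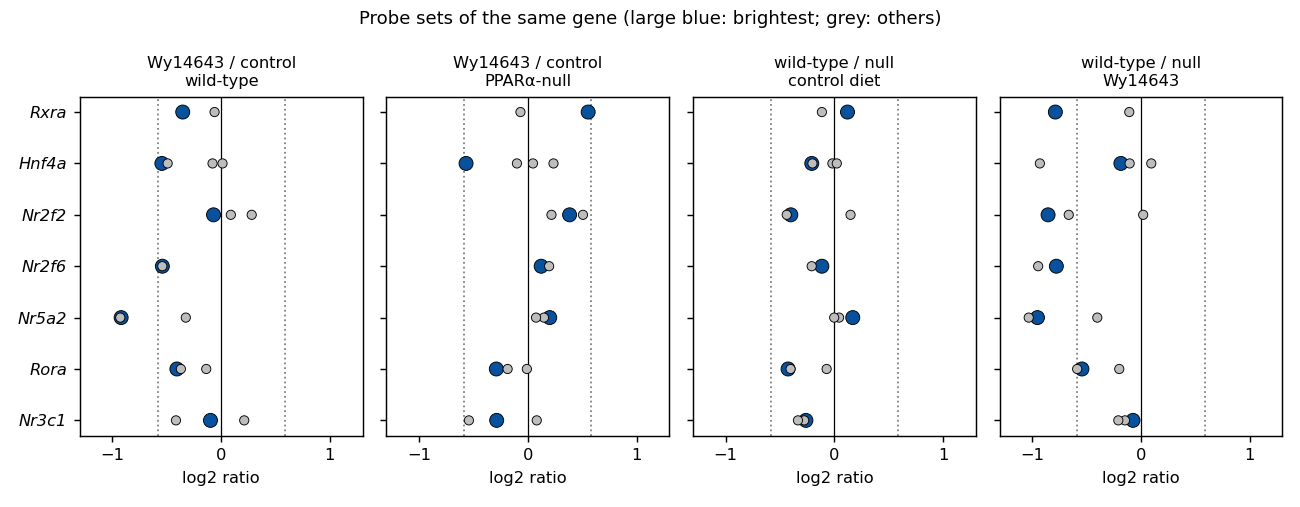
Log2 ratio (horizontal axis) of every probe set above background for 7 receptor genes with more than 1 such probe set, in each of the 4 comparisons; the large blue point is the brightest probe set, grey points are the others, and dotted lines mark 1.5-fold. The 2 probe sets of Nr2f6 and the brightest 2 of Nr5a2 lie together, whereas those of Rxra and Hnf4a lie apart in PPARα-null mice on Wy14643 and between the genotypes on Wy14643.

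Genes known as targets of these receptors were counted next. Of 13 PPAR targets above background in wild-type mice, Wy14643 gave 12 calls of higher and 0 of lower, with a median log2 ratio of 1.59. The largest ratios were those of Pdk4 (6.85), a kinase gene that restrains pyruvate oxidation, the acyl-CoA thioesterase gene Acot1 (3.34) and the peroxisome division gene Pex11a (2.89). In null mice 3 of 12 were called higher (median 0.15), among them Cyp4a14 (3.09), a fatty acid hydroxylase gene, and Vnn1 (1.03). Both were near background on the null control array. Cyp4a14 was 25.0 there and 213 on the null Wy14643 array, and Vnn1 was 17.6 and 35.9.

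For the bile acid axis of Nr1h4, Nr0b2 and Nr5a2, the wild-type arrays had 6 of 7 measured targets lower with Wy14643 and 1 higher, at a median log2 ratio of -1.04, against 0 lower and 1 higher in null mice (median 0.10). Cyp7a1, the rate-limiting enzyme of bile acid synthesis, stood at a log2 ratio of -3.65 in wild-type and 0.20 in null mice. Abcb11, whose product exports bile salts into the canaliculus, stood at -1.95 and 0.10, and the bile acid conjugation gene Baat at -1.65 and -0.28. Abcb4, the transporter of phospholipid into bile, was the exception, at 1.13 and 0.81. Cyp8b1, the 12α-hydroxylase of cholic acid synthesis, was already lower in wild-type than in null mice on the control diet (-1.87). Within the same wild-type pair of arrays, Nr1h4 stood at -0.34, Nr0b2 at 0.84 and Nr5a2 at -0.92. The list joins genes of bile acid synthesis, conjugation and export, so its count and median give no direction of receptor activity. Whether these 3 receptors play a part in the values of the listed genes was not tested.

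For the glucocorticoid receptor, whose own transcript stood at -0.10 in wild-type mice, the wild-type arrays had 10 of 12 target genes lower with Wy14643 and 0 higher (median -1.26), or 8 lower with intensities under background raised to it. In null mice 3 were lower and 0 higher (median -0.08). Dusp1, a phosphatase gene, stood at -3.47 in wild-type and -0.21 in null mice, the metallothionein gene Mt2 at -2.01 and 0.04, and Tsc22d3, a glucocorticoid-induced regulator, at -1.59 and -0.07. On the same array 2 genes of ligand activation and transport were lower. Hsd11b1, whose enzyme regenerates active glucocorticoid, stood at -3.43, and the corticosteroid-binding globulin gene Serpina6 at -2.25, with 0.01 and -0.04 in null mice. The list of ligand supply and transport had 4 of 10 genes lower and 1 higher in wild-type mice. No ligand was measured, and a part of these genes in the values of the target genes was not tested.

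Targets of CAR and PXR went both ways. In wild-type mice 2 of 14 were higher and 5 lower (median -0.09), and in null mice 2 of 13 were higher and 0 lower (median 0.19). The anion transporter gene Slco1a4 stood at -4.66 in wild-type and 0.19 in null mice, the carboxylesterase gene Ces2a at -4.14 and -0.27, and the glutathione transferase gene Gsta2 at -3.70 and -0.06. The higher genes in wild-type mice were the stress response gene Gadd45b, at 66.7 with Wy14643 and below background on the other arrays (at least 5.16-fold), and the multidrug resistance protein gene Abcc3 (0.75). In null mice Abcc3 (0.94) and Cyp3a11 (0.82) were the higher genes, and Cyp2b10, the classical CAR target, stood at 0.03 in wild-type and 0.38 in null mice.

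LXR targets had 4 of 10 genes higher and 1 lower in wild-type mice (median 0.45) and 0 higher and 1 lower in null mice (median -0.13). The lipoprotein lipase gene Lpl (5.24), the phospholipid remodelling gene Lpcat3 (2.22) and the phospholipid transfer protein gene Pltp (2.17) led in wild-type mice, and PPARs are known to act on Lpl and Pltp as well. Thyroid hormone targets had 3 of 6 higher and 1 lower in wild-type mice, with the glycerol-3-phosphate dehydrogenase gene Gpd2 at 2.41 and the lipogenic gene Thrsp at -2.81, and 0 called in null mice. Of 3 measured retinoic acid targets 1 was higher and 2 were lower in wild-type mice and 0 called in null mice; Cyp26a1, which degrades retinoic acid, was 66.4 on the wild-type control and 16.6 on the wild-type Wy14643 array, and the transglutaminase gene Tgm2 stood at 1.67.

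HNF4α targets had 2 of 7 lower and 1 higher in wild-type mice (median -0.15) and 0 called in null mice, with the pyruvate kinase gene Pklr at -3.68 and the urea cycle gene Otc at -2.12. ERRα targets of oxidative metabolism had 2 of 5 higher in wild-type mice, Cycs (1.46) and Cs (0.99), and ROR targets 1 of 4 lower, the oxysterol hydroxylase gene Cyp7b1 (-1.68). In null mice 0 of 5 ERRα targets were called and 2 of 4 ROR targets were lower, Cyp7b1 (-0.76) and the clock gene Arntl (-0.72). Each target list was picked from textbook knowledge, but with earlier results of these data known, and several genes answer to more than 1 receptor. The counts are to be read beside the 14.9% and 15.9% of all genes called higher and lower in wild-type mice. In null mice these shares were 2.28% and 4.41%. Since the lists were not blind to the data, the counts are a description and no test.

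**Figure D4:**
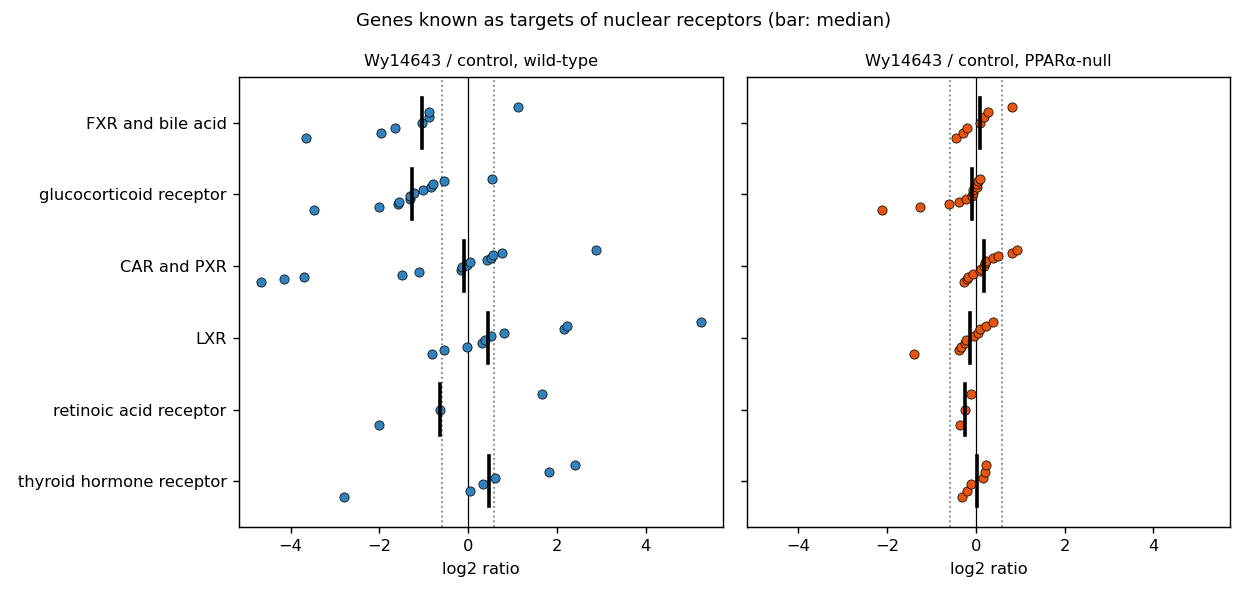
Log2 ratio of Wy14643 over control diet (horizontal axis, same scale in both panels) in wild-type (left) and PPARα-null (right) mice for genes above background known as targets of 6 receptor groups; each point is 1 gene, the black bar is the median of the list and dotted lines mark 1.5-fold. In wild-type mice the medians of the bile acid and glucocorticoid lists lie at -1.04 and -1.26, and in null mice all 6 medians lie between -0.25 and 0.19.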

How the data were processed

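Total RNA was extracted from liver with TRIzol, pooled within groups and hybridized to Affymetrix MOE430A arrays, 1 per group. The deposited values are GCRMA intensities made by the authors (GCRMA 2.20, per the submitters' processing notes): background was adjusted from probe sequence, arrays were quantile-normalized and the probes of a set were combined. They run from 1.55 to 31270.2 and lie on the linear scale. It is not stated which arrays were normalized together, which could shift ratios.

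Without the array's 64 control probe sets, 22626 of 22690 remained. Among these, 20380 carried 1 gene symbol, 691 several and 1555 none in the platform annotation; symbols were checked against RefSeq (GRCm38.p6). Log2 ratios were taken for 4 comparisons, with the 1.5-fold threshold of the methods for unreplicated arrays. A ratio with 1 array at or below background is also given against the background intensity, as "at least". Simulated arrays with known ratios were used to check the calculation. With 1 array per group, no test and no interval over mice was computed. All named receptors were accounted for; those past 1.5-fold, with Ppara, Rxra, Nr1h4 and Hnf4a, were described on every array, and for target lists the genes with the largest ratios were named, others (Cyp2b10, Cyp8b1, Abcb4, Abcc3, Cyp3a11, Cs among them) after their values were seen. The members and lists were chosen with earlier results of these data known, and the motif CAAGGNCA was added after the values were seen. Alternatives were other filters for dim probe sets, raising low values to background, 32 added to intensities, median centring, cyclic loess, leaving out less specific probe sets, the median over probe sets, each array's median as background and a 2-fold threshold. Calculations used Python 3.11.15 (numpy 2.4.6, pandas 2.3.3), with limma 3.58.1 in R 4.3.3 for cyclic loess and matplotlib 3.10.9 for figures.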

Additional observations from a re-analysis of the deposited data

Results flagged for a closer look

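For 4 receptor genes above background on all arrays, the log2 ratio of Wy14643 over control had opposite signs in the 2 genotypes and differed by at least 1.5-fold between them. The wild-type minus PPARα-null difference was -1.12 for Nr5a2 (-0.92 in wild-type and 0.20 in null mice), -1.04 for Pparg (-0.81 and 0.23), -0.91 for Rxra (-0.35 and 0.56) and -0.66 for Nr2f6 (-0.54 and 0.12). With 1 array per group none of these differences was tested. The share of all genes that meet the same rule was not computed, so the count of 4 is no result about receptors as a group. The dimmer probe set of Rxra gave a difference of 0.01, whereas the second probe sets of Nr5a2 and Nr2f6 gave -1.08 and -0.74.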

How the results depend on the processing

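No paired analysis was possible because each group holds 1 pooled array, and for the same reason no array could be left out. Of 80 counts of receptor genes recomputed under the alternatives, 67 stayed within 1.5 times the count reported. The 67 include counts for Wy14643 in null mice that were 0 and stayed at 0. A 2-fold threshold left 0 higher and 0 lower genes for Wy14643 in wild-type mice, 1 higher (Ppara) and 0 lower between genotypes on the control diet, and 1 higher (Ppara) and 1 lower (Pparg) on Wy14643. With 32 added to every intensity, 1 gene (Nr5a2) was lower on Wy14643 in wild-type mice and 1 (Ppara) higher between the genotypes on either diet. Rarb was lost between the genotypes on Wy14643, leaving 1 higher gene, when both arrays had to be above background and with a floor at background. Median centring and cyclic loess each gave 1 higher gene, Rxra, for Wy14643 in null mice; its log2 ratio of 0.56 lies close to the threshold of 0.58. With the median over probe sets, Rxra was no longer lower between the genotypes on Wy14643. Of 282 recomputed ratios of single receptors, 271 moved by less than the median difference between probe sets of a gene, 11 moved further and 0 of the ratios past 1.5-fold changed sign. Of the ratios under it, 2 close to 0 changed sign, both for Wy14643 in wild-type mice: Rarb from 0.03 to -0.01 with cyclic loess and Nr2f2 from -0.07 to 0.09 with the median over probe sets. Those that moved further were ratios of Pparg, Rxrb, Rarb, Nr0b2 and Nr4a1 with 32 added or a floor, and of Rxra and Hnf4a in null mice with the median over probe sets (0.24 and -0.03). Part of the 282 ratios could not move. A floor leaves genes above background unchanged, and the median over probe sets leaves genes with 1 probe set unchanged. Median centring shifted a ratio by at most 0.06. The 271 is therefore a description and no measure of robustness.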

Other observations

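Markers of neutrophils had a summed intensity of 44.6 on the wild-type control array, 43.0 on the wild-type Wy14643 array, 50.6 on the null control array and 238 on the null Wy14643 array, so that the null Wy14643 array stood apart. S100a8 and S100a9, which encode the calprotectin subunits of neutrophils, were 106 and 105 there, against 12.9 to 17.6 on the other arrays. These 2 genes made up most of that sum. Of the 4 markers 3 were above background on some array, and Camp was below it on all. Ngp was 17.7 on the null Wy14643 array and below background elsewhere, at least 1.37-fold over the null control array, which is no call. Of the 16 receptor genes above background on all arrays, 7 had their highest value on that array, namely Pparg, Rxra, Nr1i3, Nr0b2, Nr2f2, Nr2f6 and Nr5a2. The highest value was on the wild-type Wy14643 array for 4, the null control array for 3 and the wild-type control array for 2. The share of all genes highest on the null Wy14643 array was not computed, so the count is no result about receptors. Whether the shift in neutrophil markers plays a part was not tested.

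Zbtb16, a transcription factor gene induced by glucocorticoids, was 54.0 in PPARα-null controls, 12.5 in PPARα-null mice on Wy14643, 13.4 in wild-type controls and 5.77 in wild-type mice on Wy14643. Its level on the null control array was at least 4.18-fold higher than on the null Wy14643 array, by a probe set that the array design marks as open to cross-hybridization. Sgk1, a kinase gene of the same list, was lower on Wy14643 in both genotypes, with log2 ratios of -1.02 in wild-type and -1.25 in null mice. Fkbp5, a chaperone gene of the glucocorticoid receptor, stood at -0.54 in wild-type mice, under the threshold, and at -0.61 in null mice, past it.

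On the control diet, Cyp26a1, which retinoic acid receptors are known to induce, was 66.4 in wild-type and 15.6 in null mice (log2 ratio 2.09), and 16.6 and 12.2 on Wy14643. No retinoic acid receptor with a probe set was called between the genotypes on the control diet, Rarb standing at 0.41 with its null value below background.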
